A study of Drosophila melanogaster with 16 samples.

Results

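Brain cells of Drosophila melanogaster in which no transcript of Clk or tim was read were compared between day and night. The members were chosen cell by cell. A cell counted when it held at least 3000 unique molecular identifiers (UMIs, each standing for 1 captured transcript) and 0 UMIs of Clk and tim together, which 6387 of the 17507 cells of that depth did, out of 23921 cells in all. The cells were summed within each of 10 single-cell 3′ libraries, 5 collected by day and 5 at night. The labels give 5 collection dates, called here December, March, the earlier June, the later June and August. The day libraries were taken at Zeitgeber time 2 (ZT02, hours after lights on) in December and March, at ZT06 in the earlier June and August, and at ZT10 in the later June. The night libraries were taken at ZT14 in December and March, at ZT18 in the earlier June, and at ZT22 in the later June and August. Each date therefore held 1 day and 1 night library, 12 h apart in 4 pairs and 16 h apart in August. All flies, males and females mixed, carried Clk856-GAL4 with the split-GAL4 pair R11B03-AD and VT002670-DBD driving UAS-EGFP, and had been entrained to a light-dark cycle. Brain cells positive for GFP and a DNA dye were sorted, so the cells without Clk and tim lay inside a gate meant for clock neurons, and no library of another genotype is compared here. The age of the flies is not given in the sources used here.

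In the fly clock, CLK and CYC switch on per, tim, vri, Pdp1 and cwo. PER and TIM proteins then block CLK and CYC, VRI and PDP1 act on Clk transcription, CWO represses targets of CLK, and CRY is the light receptor that leads to the loss of TIM. Transcripts of per, tim, vri and Pdp1 are known to be high around dusk and in the early night in clock neurons. A cell at 0 UMIs of Clk and tim may still hold either transcript, because each cell is sampled to a limited depth.

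The libraries held 146, 2211, 294, 987 and 521 such cells by day (ZT02 of December, ZT02 of March, ZT06 of the earlier June, ZT06 of August and ZT10 of the later June), and 223, 521, 506, 492 and 486 at night (ZT14 of December, ZT14 of March, ZT18 of the earlier June, ZT22 of the later June and ZT22 of August). All lists of 10 values below keep this order. The summed UMIs ran from 1240707 in the smallest library, ZT02 of December, to 15548993 in the largest, ZT02 of March. Levels are given as UMIs per 10000 UMIs of the summed cells (TP10K), without a correction for length, since a 3′ assay reads 1 end of each transcript. In such sums, fewer cells of a type and less RNA per cell cannot be told apart. The EGFP entry was listed at 0 in every library, and 55 cell barcodes occurred in more than 1 library, 6 of them among these cells.

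These cells made up 41.1, 59.8, 35.4, 39.1 and 23.0% of the cells of at least 3000 UMIs by day, and 36.6, 23.4, 27.7, 29.1 and 32.8% at night. The share averaged 39.7 ± 13.3% by day and 29.9 ± 5.0% at night (SD, n = 5 each), with a difference of 9.75 percentage points. This share is a description of the selection and carries no test, since the rule itself used tim. The share was higher by day on 4 of 5 dates, and the groups overlapped. Without the March pair the difference was 3.11 points. Median UMIs per cell were 6513, 5482, 7028, 5996 and 6021 by day and 6971, 9047, 6865, 7189 and 6328 at night. They averaged 6208 ± 586 by day and 7280 ± 1037 at night (exact permutation test, p = 0.0635), so the depth of these cells did not pass the test.

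The cells were not all neurons by their defining transcripts. The pan-neuronal genes nSyb (synaptic vesicle fusion) and elav (an RNA-binding protein) reached at least 3 UMIs together in most cells, while a separate set of cells held many UMIs of Pdh, which encodes photoreceptor dehydrogenase and is known from retinal pigment cells. The split was sharp: 5399 cells had no Pdh UMI, 404 had 1 or 2, 25 had 3 to 19 and 559 had 20 or more. The cells were therefore separated into 3 kinds, after the data were seen. They are 559 Pdh cells (at least 20 Pdh UMIs, 8.75%), 516 cells with neither mark (8.08%), and 5312 nSyb/elav cells (at least 3 UMIs of both together and under 20 of Pdh, 83.2%). Of the Pdh cells, 474 had under 3 UMIs of nSyb and elav. The median depth was 4592 UMIs in Pdh cells, 7330 in cells with neither mark and 6396 in nSyb/elav cells.

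The 3 kinds differed in further genes that the split did not use. The synaptic calcium sensor Syt1 stood at 1.22 TP10K in Pdh cells, 0.08 in cells with neither mark and 21.3 in nSyb/elav cells. The glutamine synthetase Gs2, which is high in glia, stood at 27.3, 8.98 and 0.32 TP10K in the same order, while the glial transcription factor repo was at 0.03, 0.35 and 0.02. The Pdh cells also held rdhB, a retinol dehydrogenase of the visual cycle, at 22.7 TP10K, the corneal lens protein gene retinin at 19.97 TP10K, and CG4716 at 577 TP10K. The rhodopsin gene ninaE stood at only 2.95 TP10K there. Cells with neither mark were led by EbpIII (51.05 TP10K) and CG15550 (154 TP10K), held the homeobox gene Antp at 17.1 TP10K, and had the hemocyte gene Hml at 3.86 TP10K. No cell type name is given to either set, because no marker list for them was chosen independently of these cells.

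Pdh cells formed 14.4, 5.29, 12.9, 9.83 and 5.18% of the cells without Clk and tim by day, and 4.93, 3.65, 8.50, 13.2 and 24.9% at night. The means were 9.52 ± 4.24% by day and 11.0 ± 8.59% at night (exact permutation test, p = 0.802). Day and night overlapped, and libraries of the same hour differed widely (14.4 and 5.29% at ZT02, 13.2 and 24.9% at ZT22). A change of the share with the hour was not tested. Cells with neither mark took 2.74 to 11.7% by day and 2.69 to 12.8% at night (exact permutation test, p = 0.357). Over all Pdh cells of at least 3000 UMIs, 47.7, 67.2, 34.9, 32.0 and 19.4% had no Clk or tim UMI by day, against 17.2, 20, 20.3, 29.4 and 40.7% at night. In those same cells tim stood at 0.68, 0.38, 1.51, 1.78 and 4.29 TP10K by day and at 9.75, 5.58, 4.25, 1.54 and 1.38 TP10K at night. These shares of Pdh cells without Clk and tim are therefore a description of the selection and carry no test, since the rule itself used tim.

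**Figure D1:**
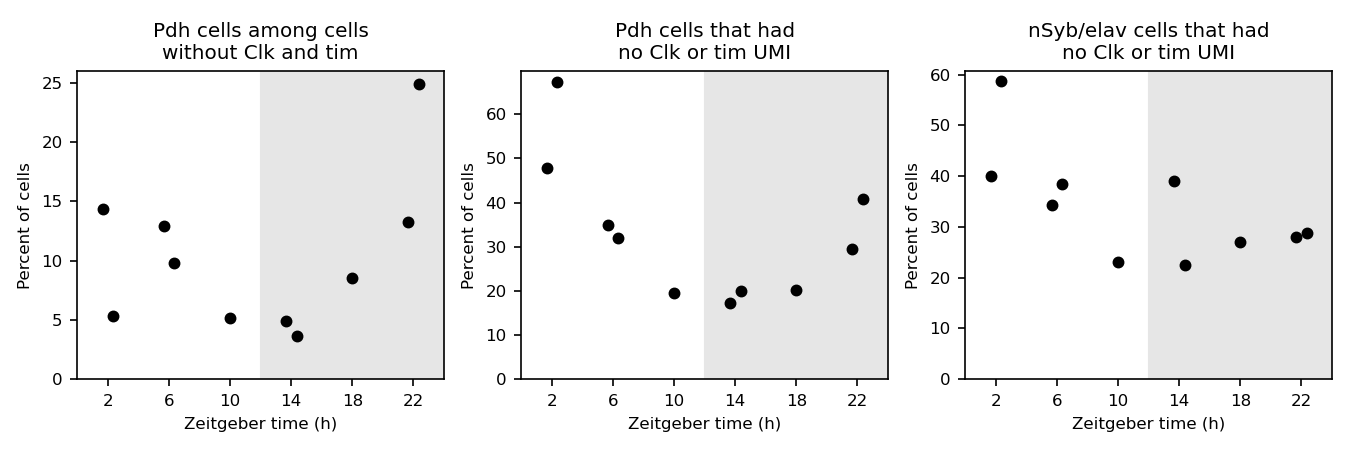
Percent of cells against Zeitgeber time in hours, 1 point per library, libraries of the same time set slightly apart and the dark phase shaded. The left panel gives Pdh cells among the cells without Clk and tim (3.65% at ZT14 of March to 24.9% at ZT22 of August), and the others give the percent of Pdh cells and of nSyb/elav cells of at least 3000 UMIs that had no Clk or tim UMI (17.2 to 67.2% and 22.4 to 58.8%).

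The summed expression of 8 marker lists was compared between day and night by exact permutation tests. Neuronal markers summed to 104 to 135 TP10K by day and 97.6 to 128 at night, and glial markers to 11.4 to 35.5 by day and 11.3 to 43.9 at night. Photoreceptor markers summed to 12.1 to 27.1 TP10K by day and 10.9 to 29.1 at night, hemocyte markers to 2.34 to 4.19 by day and 1.52 to 6.72 at night, and fat body markers to 0.145 to 0.518 by day and 0.156 to 0.369 at night, with 2 of 9 fat body genes at 0. Fast transmitter genes summed to 14.3 to 26.2 TP10K by day and 13.1 to 23.9 at night, and monoamine genes to 66.1 to 116 by day and 54.3 to 110 at night. The list with the smallest p was that of clock neuron peptides, at 13.1 to 92.7 TP10K by day and 9.84 to 22.1 at night (exact permutation test, p = 0.0397, adjusted p over the 8 lists = 0.317), and its groups overlapped. The cells were chosen on tim, so which clock neurons entered them can vary with the hour. The sum and p of this list therefore describe the chosen cells, and the part of that choice was not tested. Part of the peptide sum lay in few cells. Only 10 cells without Clk and tim held 20 or more UMIs of Pdf, the peptide of the ventral lateral neurons, and all 10 were in day libraries (1 at ZT06 of the earlier June, 5 at ZT06 of August and 4 at ZT10 of the later June), with at least 552 Pdf UMIs each.

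Between day and night, no gene passed the test in all cells without Clk and tim. Of 7610 genes tested by edgeR's quasi-likelihood test with collection date as a block, 0 were higher by day (0%) and 0 higher at night (0%), with 279 at an unadjusted p under 0.05 and a lowest adjusted p of 0.999. DESeq2 on the same sums called 4 genes (0.0526%). The precision was such that the 95% interval of the difference lay within 1 log2 unit on either side of 0 for 6389 genes (84.0%) and within 0.5 log2 units for 4396. The median standard error was 0.14 log2 units. On simulated data the day-night test recovered 4.1% of 98 genes changed 1.5-fold and 45.4% of 97 genes changed 2-fold. The absence of calls therefore leaves room for changes of that size. Day and night values did not overlap for 23 genes, 12 higher by day and 11 higher at night, which is 0.302% of those tested. In the 8194 cells of the same libraries that held 3 or more UMIs of Clk and tim, the same test called 79 of 7964 genes (0.992%), 33 higher by day and 46 higher at night. With that class limited to nSyb/elav cells, it called 35 of 7356 genes (0.476%).

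The 4 genes that only DESeq2 called can still be read library by library. CG18599 stood at 0.0967, 0.174, 0.160, 0.252 and 0.342 TP10K by day and at 0, 0.0358, 0.0166, 0.0462 and 0.0966 at night (log2 day over night 2.65 and adjusted p = 0.000399 by DESeq2, 2.54 ± 0.44 SE and adjusted p = 0.999 by edgeR). Its day and night values touched without crossing, ZT02 of December lying just above ZT22 of August. The POU-domain transcription factor pdm3 had a log2 difference of 0.87 (adjusted p = 0.00280 by DESeq2). The homeodomain transcription factor pros stood at 63.3, 134, 42.2, 29.8 and 30.5 TP10K by day and 57.7, 39.7, 23.5, 19.9 and 18.6 at night, higher by day within every date although the groups overlapped (log2 0.80, DESeq2 adjusted p = 0.0243). CG31324 was higher at night on each date (log2 -0.74, DESeq2 adjusted p = 0.0132). These genes were named after their values were seen.

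None of the tested clock genes that the selection did not use passed the day-night test. The cells were chosen on tim, which varies with the hour, so the values and p-values of these genes describe the chosen cells. The part of that choice was not tested. The repressor gene per (chromosome X, 2685580 to 2692780, plus strand, dm6) had 0.274, 0.223, 0.195, 0.249 and 0.260 TP10K by day and 0.2, 0.201, 0.235, 0.190 and 0.178 at night. Its log2 difference day over night was 0.25 ± 0.14 (SE; 95% interval -0.07 to 0.58; edgeR adjusted p = 0.999). The bZIP repressor gene vri (2L, 5288944 to 5311223, plus strand) had 0.282, 0.173, 0.465, 0.444 and 0.464 TP10K by day and 0.211, 0.256, 0.276, 0.275 and 0.236 at night, with a log2 difference of 0.46 ± 0.22 (95% interval -0.07 to 0.98). Both genes were higher by day on 4 of 5 dates, and neither passed the test.

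Pdp1 (3L, 7811458 to 7867369, minus strand), the bZIP activator gene of the loop, was the most abundant of the set in these cells. It stood at 23.1, 19.5, 17.5, 17.7 and 13.2 TP10K by day and 19, 16.5, 16.4, 14.5 and 15.0 at night, a log2 difference of 0.15 ± 0.09 (95% interval -0.05 to 0.35). The CLK-target repressor gene cwo (3R, 10388258 to 10400752, plus strand) lay between 1.19 and 1.58 TP10K in all 10 libraries, with a log2 difference of 0.05 ± 0.07 (95% interval -0.10 to 0.21). The partner of CLK, cyc (3L, 19813770 to 19815938, minus strand), had 0.153 to 0.207 TP10K by day and 0.185 to 0.246 at night (log2 -0.16 ± 0.12, 95% interval -0.44 to 0.13). The light receptor gene cry (3R, 19212154 to 19215442, plus strand) had 0.295 to 0.387 TP10K by day and 0.144 to 0.458 at night (log2 0.27 ± 0.22, 95% interval -0.25 to 0.80), and its difference turned to -0.08 without the Pdh cells and -0.16 in nSyb/elav cells. All 6 adjusted p-values by edgeR were about 0.999, and for Pdp1, cwo and cyc the intervals leave room for less than a 0.5 log2 unit change either way.

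In the cells with 3 or more UMIs of Clk and tim the same genes had other values. That class was chosen on tim, so its own clock gene levels are a description. There per stood at 0.896, 0.937, 0.924, 0.851 and 1.86 TP10K by day and 2.22, 2.41, 2.91, 1.45 and 1.38 at night. For vri the values were 2.77, 2.37, 4.73, 4.69 and 11.2 TP10K by day and 11.8, 12.8, 10.7, 4.54 and 4.24 at night. Pdp1 had 72.7, 43.1, 54.5, 52 and 71.7 TP10K by day and 169.6, 154.5, 155.5, 104.5 and 105.5 at night. The log2 differences day over night in that class were -0.93 for per (95% interval -1.61 to -0.25) and -0.87 for vri (-2.44 to 0.70). They were -1.22 for Pdp1 (-1.60 to -0.84) and -0.16 for cwo (-0.81 to 0.49), so the intervals of vri and cwo included 0. All 4 were positive in the cells without Clk and tim, each with an interval that included 0. Those cells were chosen on tim as well, so the contrast of signs is also a description.

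**Figure D2:**
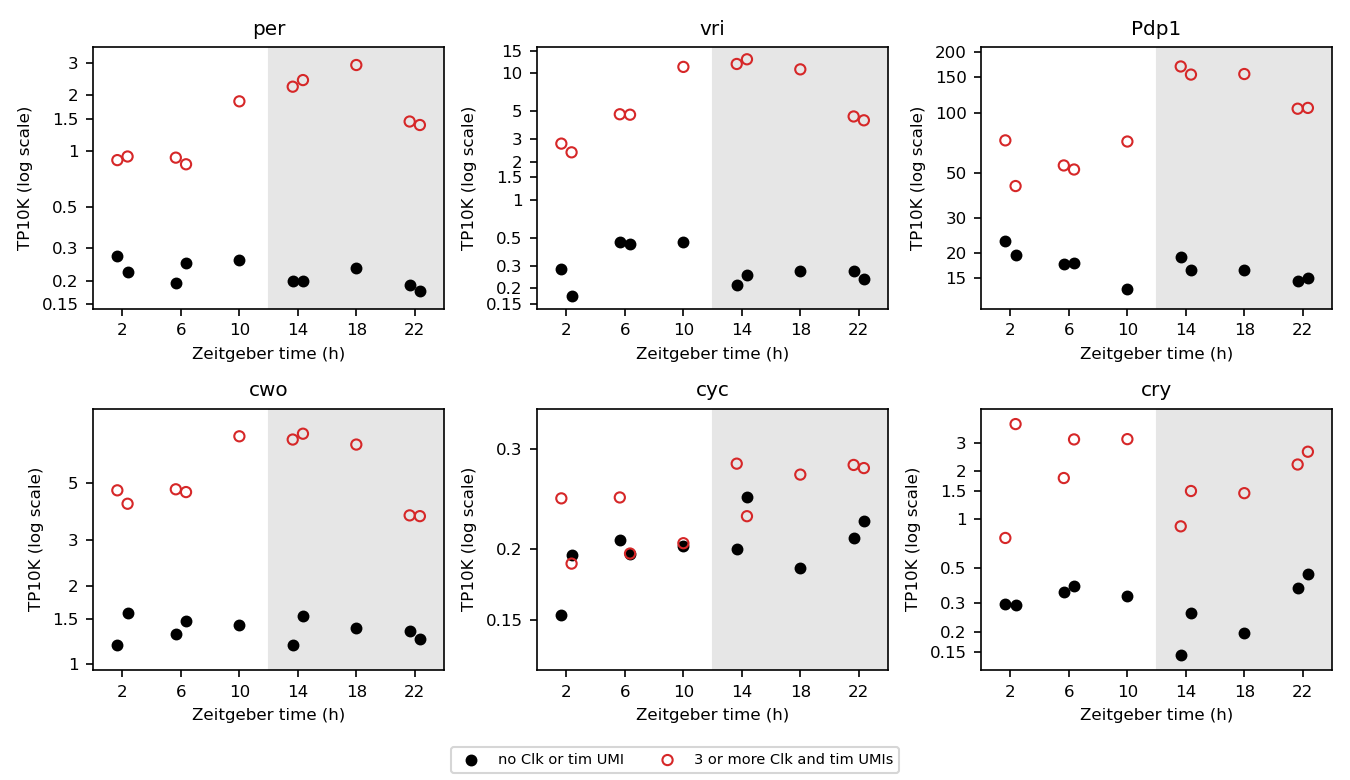
Levels of 6 clock genes in TP10K against Zeitgeber time, for cells without Clk and tim and for cells with 3 or more UMIs of both together, 1 point per library, with the dark phase shaded. Pdp1 stays between 13.2 and 23.1 TP10K in the cells without Clk and tim and spans 43.1 to 169.6 in the other class.

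A change over the day need not fall along the line between day and night, so a curve with a period of 24 h was fitted over the 6 time points. By this test 17 of 7610 genes passed (0.223%), with 615 at an unadjusted p under 0.05. The 17 were CG6126, CG34417, nec, Ugt35B1, bdl, Irk2, Tsp5D, ine, Spn43Ab, CG31663, pdgy, tfc, Timp, Proc-R, CG7888, Ets98B and N. They include the serpins nec and Spn43Ab, the inward rectifier potassium channel Irk2, the metalloprotease inhibitor Timp, the proctolin receptor Proc-R and the receptor Notch (N). Their fitted peaks lay between ZT23.5 and ZT2.34, with fitted peak-to-trough swings of 1.63 to 7.25 log2 units. None of the 6 clock genes passed in these cells, which were chosen on tim.

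Pdh cells held 50% or more of the UMIs of 10 of these 17 genes and less for the other 7. Their share ran from 14.5 to 95.6% of a gene's UMIs (median 61.6%), while they held 5.92% of all UMIs and 3.56% of those of the median gene. The 17 genes stood at 0.298 to 10.01 TP10K in Pdh cells, 0.0282 to 3.29 in cells with neither mark and 0.00426 to 0.161 in nSyb/elav cells. For 2 of them the level was higher in cells with neither mark than in Pdh cells (Timp 1.59 against 1.22 TP10K, CG7888 0.791 against 0.298), and nec was about level at 3.29 against 3.39. Irk2 stood at 0.798, 0.640, 0.660, 0.744 and 0.332 TP10K over all cells by day and 0.217, 0.199, 0.542, 1.01 and 1.70 at night. Inside the Pdh cells it stood at 8.60, 9.27, 7.94, 9.78 and 9.70 TP10K by day and 9.22, 8.11, 11.2, 12.3 and 10.8 at night, and it did not exceed 0.0849 TP10K in the nSyb/elav cells of any library. Spn43Ab had 0.604, 0.689, 0.726, 1.38 and 0.447 TP10K over all cells by day and 0.178, 0.127, 0.440, 0.8 and 1.52 at night, and 6.25, 7.69, 7.14, 9.64 and 11.3 by day and 7.04, 4.87, 7.75, 8.02 and 6.91 at night inside the Pdh cells. Over all cells both genes had their lowest values in the ZT14 libraries, where Pdh cells formed 4.93 and 3.65% of the cells. The part of the mix of cells in the 17 calls was not tested.

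Without the Pdh cells the curve test called 1 gene, which was among the 17. In nSyb/elav cells 6 of the 17 were abundant enough to be tested, with a lowest adjusted p of 0.760 by edgeR. Within the Pdh cells 15 were tested and 3 passed, N (adjusted p = 0.00943), CG34417 (adjusted p = 0.0103) and bdl (adjusted p = 0.0418). Without the collection date in the model 0 of 7610 genes passed. Leaving out 1 date at a time gave 0 genes (without the later June), 9 (December), 22 (August), 84 (the earlier June) and 89 (March).

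**Figure D3:**
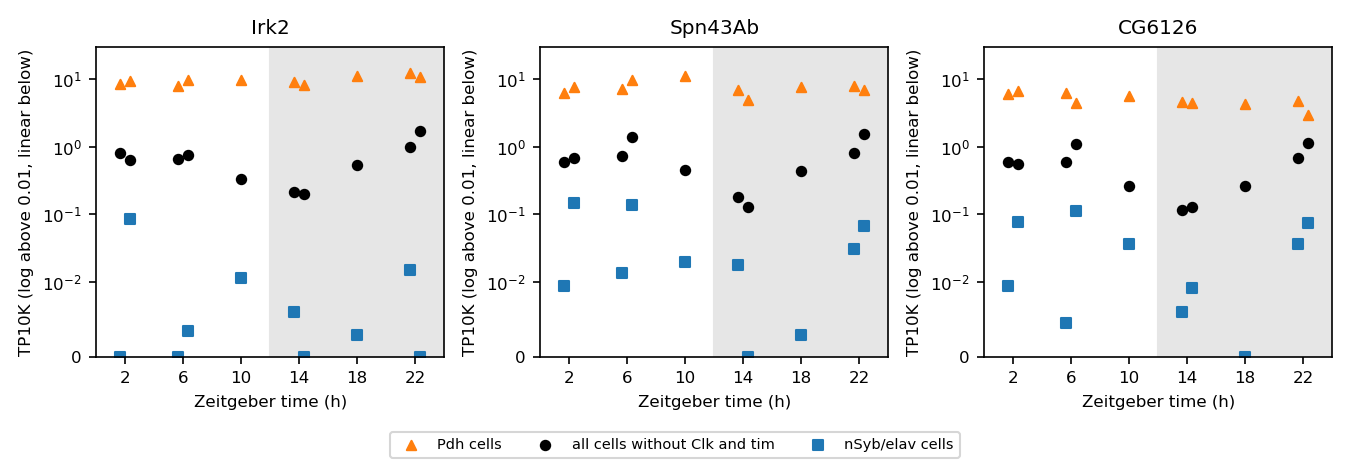
TP10K against Zeitgeber time for Irk2, Spn43Ab and CG6126, of the 17 genes that passed the 24 h curve test, over all cells without Clk and tim, in Pdh cells and in nSyb/elav cells, 1 point per library, on a log axis that is linear below 0.01. Irk2 spans 0.199 to 1.70 TP10K over all cells but 7.94 to 12.3 inside the Pdh cells.

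In the 5312 nSyb/elav cells without Clk and tim, 2 genes differed between day and night. Of all nSyb/elav cells of at least 3000 UMIs, 39.9, 58.8, 34.3, 38.5 and 23.0% entered this set by day. At night 38.9, 22.4, 27.0, 28.0 and 28.9% did. Among all cells without Clk and tim, 0, 12, 1, 3 and 2 by day and 0, 1, 1, 1 and 0 at night held 50 or more AstA UMIs. Since tim was used to choose the cells, the part of that choice in the differences below was not tested. Of 6984 genes tested by edgeR, 1 was higher by day (0.0143%) and 1 higher at night (0.0143%), with 321 at an unadjusted p under 0.05. The POU-domain transcription factor pdm3 (2R, 8327490 to 8396280, plus strand), which acts in the identity and wiring of neurons, stood at 1.20, 2.11, 1.48, 1.24 and 1.43 TP10K by day and 1.05, 0.977, 0.735, 0.683 and 0.767 at night. Every day library lay above every night library. The means were 1.49 ± 0.367 TP10K by day and 0.842 ± 0.160 at night (SD, n = 5 each), a fold of 1.82 (95% interval 1.53 to 2.16; log2 0.86 ± 0.12, edgeR adjusted p = 0.0161).

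CG13408 (3R, 22080382 to 22083473, plus strand) had 0.235, 0.568, 0.273, 0.334 and 0.382 TP10K by day and 0.511, 0.871, 0.433, 0.659 and 0.599 at night. The groups overlapped, ZT02 of March lying above 2 night libraries, but each date showed the lower value by day. The means were 0.359 ± 0.130 TP10K by day and 0.615 ± 0.167 at night (log2 -0.76 ± 0.10, edgeR adjusted p = 0.0161). Without the collection date as a block neither gene passed, and no gene passed in either direction without March or either June date. Without August 4 genes were higher by day and 1 at night, and without December 1 and 2. In these cells vri had a log2 difference of 0.90 ± 0.20 (95% interval 0.47 to 1.33; adjusted p = 0.296), from 0.103, 0.101, 0.228, 0.185 and 0.298 TP10K by day and 0.0297, 0.0899, 0.118, 0.118 and 0.103 at night. It did not pass, although its interval over this 1 gene lay above 0.

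**Figure D4:**
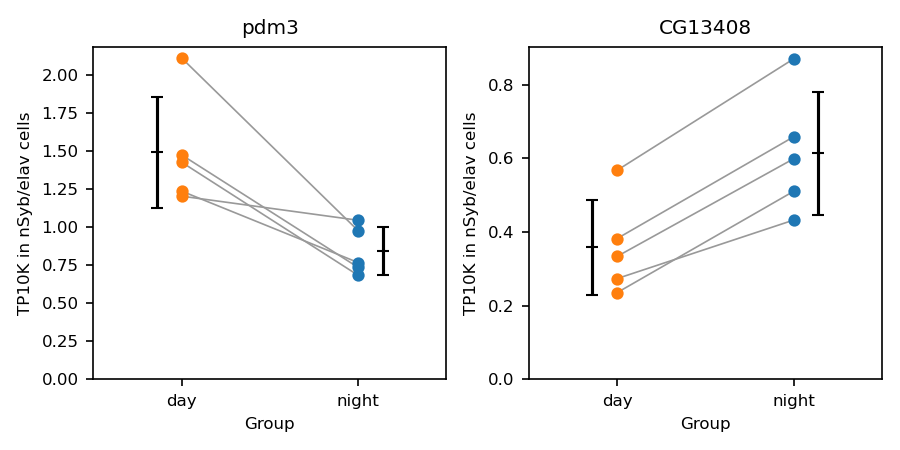
pdm3 and CG13408 in TP10K in nSyb/elav cells without Clk and tim, day libraries left of night libraries, with lines joining the libraries of 1 date and bars giving mean ± SD (n = 5 each). For pdm3 all 5 day libraries, from 1.20 TP10K, lie above all 5 night libraries, up to 1.05; for CG13408 every line goes up toward night.

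The 24 h curve called 2 of 6984 genes in the nSyb/elav cells (0.0286%), both peptide genes expressed in very few cells. CCHa2 (adjusted p = 0.00590) had 0, 439, 21, 129 and 113 UMIs by day and 0, 57, 0, 0 and 0 at night, read in 0, 16, 1, 2 and 2 cells by day and in 0, 4, 0, 0 and 0 at night. ITP, the ion transport peptide (adjusted p = 0.0198), had 4, 1660, 259, 232 and 23 UMIs by day and 2, 8, 48, 65 and 85 at night. Cells with 10 or more ITP UMIs numbered 0, 4, 1, 4 and 0 by day and 0, 0, 2, 1 and 2 at night. The sums of both genes thus rested on few cells. Without the date block, or without March, the curve called 0 genes there, and without August 10.

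Among cells that named their transmitter, cholinergic ones showed 1 change. In the 1866 cells with the acetylcholine transporter VAChT, 1 of 5565 genes passed (0.018%, 282 at an unadjusted p under 0.05). It was CG15537, at a mean of 1.47 TP10K by day and 3.38 at night (log2 -1.23 ± 0.15, edgeR adjusted p = 0.00916), and without the date block it did not pass. Leaving out 1 date gave 3 to 10 genes. These cells were chosen on tim as well, and the part of that choice was not tested. In the 925 cells with the glutamate transporter VGlut, edgeR called 0 of 5217 genes (0%, 217 at an unadjusted p under 0.05), and in the 363 cells with the GABA-producing enzyme Gad1 it called 0 of 2503 (0%, 59 at an unadjusted p under 0.05). Gad1 cells were few, and a p that misses the threshold does not show that they were alike by day and night.

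Gene lists of the brain were counted in the same way. No list had a member past the day-night test over all cells without Clk and tim, where 3829 of 7610 genes had a positive difference and the median over all genes was 0.00 log2. Of 85 tested genes of cytoplasmic ribosomal proteins, 82 had a negative difference (lower by day), with a median of -0.13. In nSyb/elav cells alone it was 54 of 85, with a median of -0.03. For example RpL32 had 13.7, 15.3, 16.8, 20.2 and 19.8 TP10K by day and 14.01, 18.7, 20.4, 19.97 and 22.5 at night over all cells.

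Of 25 genes of the synaptic vesicle and active zone, 22 had a positive difference over all cells (median 0.05), and 16 of 25 in nSyb/elav cells (median 0.02). Of 15 genes of protein folding in the endoplasmic reticulum, 13 had a negative difference over all cells (median -0.10) and 11 of 15 in nSyb/elav cells (median -0.12). For 12 genes regulated by neuronal activity, 7 were positive over all cells (median 0.20) and 11 in nSyb/elav cells (median 0.22). The nuclear receptor Hr38, a member of that list that is induced by firing, stood at 5.65, 8.56, 4.26, 4.25 and 7.24 TP10K by day and 3.24, 3.57, 5.41, 6.01 and 3.6 at night in nSyb/elav cells (log2 0.47 ± 0.25, edgeR adjusted p = 0.9999), with overlapping groups. Of 29 ion channel genes 23 were positive over all cells (median 0.09), and of 22 genes with known roles in sleep 16 were positive (median 0.08).

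Whether the day-night difference itself differed between the cells without Clk and tim and those with 3 or more UMIs of both was tested gene by gene in 1 model. It did for 11 of 7447 genes (0.148%, 693 at an unadjusted p under 0.05). The difference of differences, given as cells without minus cells with Clk and tim, was positive for 8 (Pdp1 1.35, Sdc 0.85, mRpL54 0.80, mRpS14 0.62, SdhD 0.55, ND-19 0.54, CG11752 0.51, ND-B22 0.49) and negative for 3 (sano -1.21, CG31191 -0.94, Cbp53E -0.93). Both classes were chosen on Clk and tim, and tim varies with the hour, so which cells enter each class can vary with the hour too. That part was not tested, and for the clock genes Pdp1 (1.35 ± 0.20 SE) and per (1.15 ± 0.23) the values are a description.

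Some of these genes are given library by library in both classes. The syndecan gene Sdc, a heparan sulfate proteoglycan, had 9.40, 10.2, 8.28, 7.79 and 7.68 TP10K by day and 9.19, 7.77, 7, 6.76 and 6.71 at night in cells without Clk and tim. In cells with them it had 13.6, 11.8, 10.0, 10.7 and 13.5 TP10K by day and 24.5, 21.2, 20.6, 15.1 and 14.4 at night. ND-19, a subunit of respiratory complex I, had 1.38, 1.66, 1.41, 1.85 and 2.11 TP10K by day and 1.65, 1.63, 1.89, 1.72 and 1.69 at night in cells without Clk and tim, against 0.755, 0.747, 0.792, 0.853 and 1.11 by day and 1.36, 1.12, 1.38, 1.36 and 1.24 at night in cells with them. In the cells without, day and night overlapped, and in the cells with Clk and tim they did not. Cbp53E, a calcium-binding protein, had 8.52 to 11.5 TP10K by day and 7.97 to 9.88 at night in cells without, and 1.82 to 2.50 by day and 0.956 to 1.17 at night in cells with Clk and tim.

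With nSyb/elav cells taken in both classes (7475 cells with 3 or more UMIs of Clk and tim), the difference of differences passed for 57 of 6828 genes (0.835%), 44 positive and 13 negative, and these included all 11. Among the 57 were Pdp1 (1.37 ± 0.19) and per (1.20 ± 0.22), again as a description, and TrissinR, a peptide receptor (1.57 ± 0.28, edgeR adjusted p = 0.0375). They also held 10 of the 68 tested genes of the respiratory chain and 7 of the 72 of mitochondrial ribosomal proteins. Over all genes it was 57 of 6828. The mitochondrial ribosomal proteins were a group chosen after the values were seen. Among the 13 negative ones were CG30460 (-2.35 ± 0.32), the polarity gene baz, the immune factor Dif and the glucose transporter Glut1. The median absolute day-night difference of the 57 was 0.09 log2 units in the cells without Clk and tim and 0.58 in those with them. The 57 were called for a difference between the classes in these same sums, so both medians are a description. Leaving out 1 date at a time gave 82 (December), 35 (March), 0 (the earlier June), 24 (the later June) and 1 (August) genes here and 0 (without March, the earlier June or August), 5 (the later June) and 50 (December) with all kinds of cell, and against cells with 1 or more UMIs of Clk and tim 0 genes passed.

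In the Pdh cells without Clk and tim 54 genes differed between day and night. Of 2341 genes tested by edgeR, 9 were higher by day (0.384%) and 45 higher at night (1.92%), with 375 at an unadjusted p under 0.05. Of the 45, 25 were nuclear genes of the mitochondrial respiratory chain. The summed Pdh cells held 41222 to 631037 UMIs per library, from 11 to 121 cells, which is shallow beside the other sums. Without March 2 genes were higher by day and 4 at night, without the earlier June 1 and 5, and without August 0 and 0. Since tim was used to choose these cells, and its level in Pdh cells varied with the hour, its part in these differences was not tested.

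Every tested gene of the respiratory chain list, 66 of 66, had a lower level by day in the Pdh cells, with a median log2 difference of -0.80, beside -0.01 for all genes tested. ATPsynC, which encodes the ring subunit of the ATP synthase, stood at 17.1, 16.1, 14.5, 13.7 and 18.7 TP10K by day and 26.0, 28.4, 32.5, 29.6 and 24.9 at night (log2 -0.87 ± 0.12, edgeR adjusted p = 0.00639). The cytochrome c oxidase subunit COX8 had 4.60, 3.47, 4.54, 4.21 and 5.38 TP10K by day and 10.2, 9.66, 9.19, 10.3 and 9.31 at night (log2 -1.19 ± 0.17, adjusted p = 0.00639). ND-19 had 0.521, 0.602, 0.520, 0.736 and 0.682 TP10K by day and 2.43, 2.52, 3.16, 1.21 and 1.23 at night (log2 -1.67 ± 0.32, adjusted p = 0.0201). For each of the 3, day and night values lay apart.

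The same list had its own values in the other cells. In nSyb/elav cells without Clk and tim, 42 of 68 were negative with a median of -0.02 and 0 called by edgeR. In the 1099 Pdh cells that held Clk or tim, all 68 were negative, with a median of -0.59 and 17 called lower by day, beside 41 of all 4407 genes tested there (0.93%). In all cells with 3 or more UMIs of Clk and tim, 67 of 68 were negative, with a median of -0.37 and 4 called lower by day, beside 44 of the 7447 genes tested in both classes (0.591%). Restricting the Pdh cells without Clk and tim to the 474 with under 3 UMIs of nSyb and elav gave 66 of 66 negative, a median of -0.80 and 28 called lower by day, beside 45 of all 2050 (2.2%). Leaving out 1 date at a time kept all 66 negative with medians of -0.95 to -0.74, but the number called changed to 23, 2 (without March), 2 (without the earlier June), 35 and 0 (without August).

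**Figure D5:**
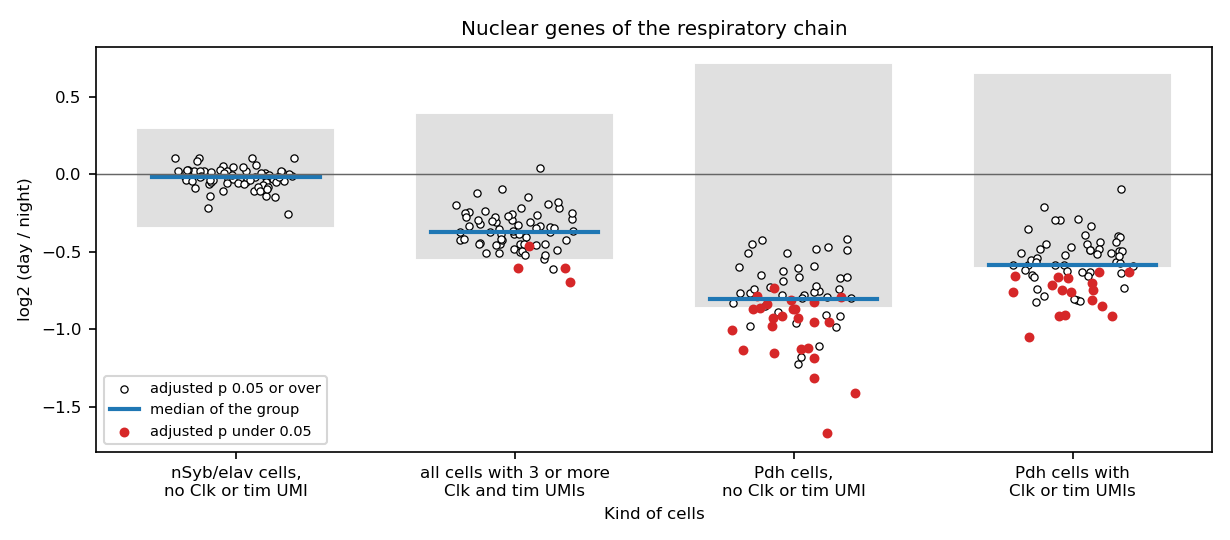
Log2 day over night of the nuclear genes of the respiratory chain in 4 kinds of cell, 1 point per gene, filled red where the edgeR adjusted p was under 0.05, with grey boxes for the central 90% of all genes tested in that kind. The genes lie below 0 in Pdh cells with a median of -0.80 and around 0 in nSyb/elav cells without Clk and tim (median -0.02).

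The genes higher by day in the Pdh cells were CG3764, Tret1-1, Xrp1, CG13397, CG4733, tmod, Sirup, rdgA and Nrt. The trehalose transporter gene Tret1-1 had 1.56, 2.30, 0.614, 0.864 and 0.455 TP10K by day and 0, 0.0811, 0.247, 0.151 and 0.211 at night (log2 2.29 ± 0.43, edgeR adjusted p = 0.0201). The stress-linked bZIP factor Xrp1 had 5.38, 4.87, 6.62, 5.15 and 4.55 TP10K by day and 2.43, 1.62, 2.77, 3.59 and 2.61 at night (log2 0.99 ± 0.22, adjusted p = 0.0306). CG3764 had 2.43, 1.93, 0.898, 0.920 and 1.21 TP10K by day and 0, 0.568, 0.148, 0.332 and 0.130 at night. For all 3 the day values lay above the night values.

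Some genes called higher at night in the Pdh cells are neuronal. nSyb had 2.43, 3.96, 0.142, 0.184 and 0.0758 TP10K by day and 7.52, 10.5, 0.247, 0.0301 and 0.762 at night, and Ank2, a neuronal membrane adaptor, behaved alike at 1.30, 1.40, 0.0945, 0.0736 and 0 by day and 5.58, 7.95, 0, 0.0301 and 0.535 at night. Both were high in the December and March libraries and under 1 TP10K in the others, and where these transcripts came from was not tested. With the 474 Pdh cells of few nSyb and elav UMIs, 10 genes were higher by day and 45 at night of 2050 tested, and 39 of the 44 earlier calls that could be tested there were called again. These 474 cells are most of the Pdh cells behind the earlier calls, so the repeat is not independent of them.

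Over the 6 time points, 195 of 2341 genes passed the 24 h curve in the Pdh cells (8.33%), and 92 without the date block. Leaving out March gave 64, the later June 66 and August 50. cry stood at 2.17, 2.52, 1.37, 1.91 and 0.303 TP10K by day and 0, 0.0811, 0.0988, 1.27 and 1.249 at night (edgeR adjusted p = 0.000157). vri stood at 1.04, 0.840, 2.65, 1.77 and 3.64 TP10K by day and 2.18, 2.27, 1.53, 0.844 and 0.454 at night (adjusted p = 0.00133). Thus cry was low from ZT10 to ZT18 and vri was high from ZT06 to ZT14 in cells in which Clk and tim were not read. Both fall outside what a comparison of day with night can show, since each group spans hours at which the gene was high and hours at which it was low. These cells were chosen on tim, so the values and p-values of both clock genes are a description of the chosen cells. The part of that choice was not tested. The cry values from ZT10 to ZT18 came from sums of 131908, 41222, 123239 and 202503 UMIs, so each stands for few cry UMIs.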

How the data were processed

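Brain cells sorted from 10 libraries were measured by droplet 3′ RNA sequencing. The authors deposited a table of raw UMI counts per gene and cell, aligned to dm6 with Cell Ranger and STAR per the labels (versions not given in the sources used here). The study excluded doublets with Scrublet, and whether before deposit is not stated; no further doublets were removed. A deposited bulk table was not used. Cells of at least 3000 UMIs without Clk and tim UMIs were summed per library. Genes with at least 10 UMIs in at least 5 libraries were tested with edgeR 4.0.16 (R 4.3.3; TMM, quasi-likelihood, collection date as a block, Benjamini-Hochberg adjustment over all genes, called at adjusted p under 0.05). DESeq2 1.42.0 was an alternative. Single values used exact permutation tests over libraries, without collection date as a block (numpy 2.4.6). The code was tested on simulated data. The labels give each date 1 day and 1 night library. Deviations of the libraries of 1 date from their group means correlated at 0.314 (December), 0.210 (March), -0.267 (the earlier June), 0.0575 (the later June) and 0.313 (August) over 4645 genes, beside a median of -0.0435 for the other 20 pairs. Nothing says that the libraries of a group came from separate cultures of flies, so p-values measure the spread between these libraries. The members and gene lists were chosen with earlier results of these data known. By rule, the text names the clock genes and, of the genes called over all cells, up to 12 in each direction and 4 per list. Since none was called there, genes named elsewhere, and the split by nSyb, elav and Pdh, were chosen after values were seen. No sequences were used here.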

Additional observations from a re-analysis of the deposited data

Results flagged for a closer look

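In 42 groups of 5 libraries, the extreme library stood apart from the other 4 by Dixon's criterion in 2, where chance alone gives about 1 in 20. The level of cyc was lowest at ZT02 of December, at 0.153 TP10K, with the other day libraries between 0.196 and 0.207. The summed level of the clock neuron peptides was highest among night libraries at ZT14 of December, at 22.1 TP10K, with the others between 9.84 and 13.1. Those are the libraries with the fewest cells in each group.

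The day-night difference differed by test between cells without and cells with Clk and tim for 11 genes, at log2 differences of differences of 1.35 for Pdp1, 0.85 for Sdc, 0.80 for mRpL54, 0.62 for mRpS14, 0.55 for SdhD, 0.54 for ND-19, 0.51 for CG11752, 0.49 for ND-B22, -0.93 for Cbp53E, -0.94 for CG31191 and -1.21 for sano. Both classes were chosen on Clk and tim, and the part of that choice was not tested.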

How the results depend on the processing

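Counts of genes depended on the tool, the date block and the dates kept. Over all cells DESeq2 called 3 genes higher by day and 1 at night, and nSyb/elav cells (chosen after seeing the data) gave 1 and 1 by edgeR. The 24 h curve called 17 genes, but 0 with no replicate block, 1 without Pdh cells and 2 in nSyb/elav cells. The difference between classes held for 11 genes, 0 against cells with 1 or more UMIs of Clk and tim, and 57 in nSyb/elav cells. With no replicate block the VAChT cells gave 0, the Pdh cells 92 rhythmic genes in place of 195, and the nSyb/elav cells 0 by day, 0 at night and 0 rhythmic. DESeq2 gave 16 genes higher by day in Pdh cells and 5 in nSyb/elav cells. Leaving out 1 date gave 0 to 89 rhythmic genes and 0 to 50 different between classes (0 to 82 in nSyb/elav cells), 3 to 10 in VAChT cells, 0 to 7 in VGlut cells, 0 to 4 higher by day, 0 to 2 at night and 0 to 10 rhythmic in nSyb/elav cells, and 0 to 10 higher by day, 0 to 52 at night and 50 to 177 rhythmic in Pdh cells. The share difference ran from 3.11 to 13.7 points and the difference in median UMIs from -1381 to -449. The cause of these changes was not tested. The log2 difference of vri ran from -0.01 to 0.90 over the alternatives and that of cry from -0.16 to 0.77, with cry negative without Pdh cells and in nSyb/elav cells. That of cwo, near 0, was also negative in 3 alternatives. The 41222 UMIs of the smallest Pdh sum limit what low genes can show there.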
